A study of Mus musculus with 8 samples.

Results

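The genes described here are 10 markers of the heart muscle cells that line pulmonary veins, read in the lungs of mice given bone marrow with or without nitric oxide synthases. They were chosen by name from a list of cardiac muscle genes, with earlier results of these data known. All 10 were found among the 23284 genes of the deposited table. Lung RNA came from 8 wild-type (WT) C57BL/6 recipients, all exposed to hypoxia for 3 days, with no lung from normal air. Of these, 4 had received triply n/i/eNOS-/- bone marrow, which lacks the neuronal, inducible and endothelial nitric oxide synthases and is written as NOS-null marrow. The remaining 4 had received WT bone marrow. Marrow gives rise to blood and immune cells, so the lung and heart muscle cells of every recipient carried that mouse's own intact nitric oxide synthase genes. Age, irradiation, the share of donor cells and how much of the vessels near the heart was taken with each lung are not stated in the labels used here.

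In rodents a sleeve of atrial type heart muscle extends from the left atrium along the pulmonary veins into the lung. These cells contract with the heartbeat, and in people the sleeves are known as a source of the extra beats that start atrial fibrillation. Their sarcomeres use the atrial forms of the myosin light chains. Calcium released from the sarcoplasmic reticulum starts each contraction, and a pump that sarcolipin and phospholamban hold back returns it to the store. Atrial muscle also stores and secretes atrial natriuretic peptide, which relaxes vessels.

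The cardiac muscle signal was present in every lung and differed from one lung to another within both marrow groups. By gene, the highest lung held 1.98 to 3.65 times the lowest with NOS-null marrow and 1.52 to 4.15 times with WT marrow. All 10 genes had a higher average log2 level with NOS-null marrow, by 0.06 to 0.93, but none of the 10 passed the test. Their 4 NOS-null marrow values and 4 WT marrow values overlapped in every case. The 10 genes varied together across the 8 lungs, though no similarity was worked out within a marrow group. The Pearson similarity of each gene's log2 values to the mean of the other 9 was 0.80 (Nppa) to 0.99 (Pln) over the 8 libraries, as a description.

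Per library the values added up to between 7767065 and 8625142, with 16778 to 17621 genes above 0. Values are read counts that the authors scaled between libraries, called scaled reads here. A log2 change is the mean of log2(scaled reads + 1) with NOS-null marrow less that with WT marrow, with its standard error (SE) and 95% interval from limma; changes of low genes come out too small on it. Calling a gene took a Benjamini-Hochberg adjusted p below 0.05 across all 14008 genes tested. By that rule 567 genes were called, or 4.05% of those tested, 262 higher (1.87%) and 305 lower (2.18%). The labels number the mice of each group and say no more of how they relate, so p-values refer to the spread among the 8 libraries, which may be technical. Nos2, which encodes the inducible synthase, was lower in every lung that received NOS-null marrow, with 13.3, 20.8, 40.4 and 43.5 scaled reads by replicate, against 87.4, 115, 88.7 and 103 with WT marrow (log2 change −1.84, adjusted p = 0.0221 from limma). Nos3, the endothelial synthase gene, was at 177 to 219 in lungs given NOS-null marrow and 171 to 207 in those given WT marrow (0.07, limma adjusted p = 0.701), and Nos1 held at most 1 read in any lung. NOS-null marrow replicates 1 and 2 stood farthest from WT marrow on the first principal component, at −57.7 and −32.3, against −3.35 and −1.40 for replicates 3 and 4 and 17.7 to 27.2 for WT marrow.

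Genes that set atrial muscle apart from ventricular and skeletal muscle were read as a check of the cell type. Myl7 and Myl4, the atrial regulatory and essential myosin light chain genes, averaged 124 ± 49.6 and 70.8 ± 21.9 FPKM with NOS-null marrow, against 86.3 ± 32.6 and 47.8 ± 20.7 FPKM with WT marrow (SD, n = 4 each). FPKM is the authors' read value per transcript length and depth. On the same scale Myl2, Myl3 and Myh7, which encode the ventricular light chains and the beta myosin heavy chain, averaged 2.04, 9.20 and 2.40 FPKM in lungs given NOS-null marrow and 3.58, 4.47 and 2.61 FPKM in those given WT marrow. Myl2 held 4.93 to 8.33 scaled reads for NOS-null marrow and 9.94 to 16.1 for WT marrow. The ventricular regulator Irx4 was listed at 0 except for 1 read in WT marrow replicate 3, and the 5 ventricular genes listed summed to 211 to 318 for NOS-null marrow and 209 to 243 for WT marrow. Myl3 stood at 53.3 ± 26.6 for NOS-null marrow and 25.9 ± 9.98 for WT marrow (log2 change 0.95, limma adjusted p = 0.146), with a similarity of 0.87 to the members' mean profile. Of 21 skeletal muscle genes, 11 stayed under 10 scaled reads in every library, among them Myh4, Pvalb and Myog, and Myod1 was at 0 throughout. The 21 skeletal genes summed to 140.5 to 174 scaled reads for NOS-null marrow and 207 to 272 for WT marrow. Of the 7 tested, 1 fell, Casq1, the skeletal calsequestrin gene, at 24.9 ± 7.78 in lungs given NOS-null marrow, against 53.4 ± 5.79 in those given WT marrow (−1.12, limma adjusted p = 0.0338), and it was not called with replicate 2 of NOS-null marrow, or any lung of the WT marrow group, left out (highest limma adjusted p = 0.113). Bmp10, a growth factor gene of right atrial muscle in the adult mouse, was listed at 0 in all 8 libraries. These genes do not separate muscle of the vein sleeve from left atrial muscle attached to the lung, so the name pulmonary vein cardiomyocyte rests on the tissue taken. The ventricular and right atrial genes named here, and Myod1, Myh4, Pvalb and Myog, were picked after their values were seen.

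Ordered by mean FPKM over the 8 libraries, the thin filament gene Actc1 was highest at 118 ± 25.8 and the calcium release channel gene Ryr2 lowest at 0.623 ± 0.326 (SD, n = 8). Between them came Myl7 (105.0), Tnnt2 (63.0), Myl4 (59.3), Tnni3 (49.6), Sln (26.4), Myh6 (18.7), Nppa (18.3) and Pln (9.87), all mean FPKM. Some neighbours in this order could not be placed. Tnnt2 was above Myl4 in 5 of 8 libraries, with a mean log2 ratio of 0.09 ± 0.26, and Myh6 above Nppa in 4 of 8, with 0.03 ± 0.56. Actc1 was above Myl7 and Sln above Myh6 in 7 of 8 libraries each, with mean log2 ratios smaller than or near their spread (0.25 ± 0.39 and 0.47 ± 0.58). For the other 5 neighbouring pairs the order was the same in all 8 libraries. By group, Myl7 averaged 124 and Actc1 122 FPKM with NOS-null marrow, against 86.3 and 115 FPKM with WT marrow. Myh6 averaged 23.9 and Nppa 19.7 FPKM with NOS-null marrow, against 13.5 and 16.9 FPKM with WT marrow. Myl4 averaged 70.8 and Tnnt2 70.4 FPKM with NOS-null marrow, against 47.8 and 55.7 FPKM with WT marrow. The step from Pln to Ryr2 was 15.7-fold. The order and its steps depend on the transcript lengths that the authors used, which no label used here gives. In GENCODE the longest coding transcripts of Sln, Pln and Ryr2 hold 1318, 2334 and 16814 bases.

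**Figure D1:**
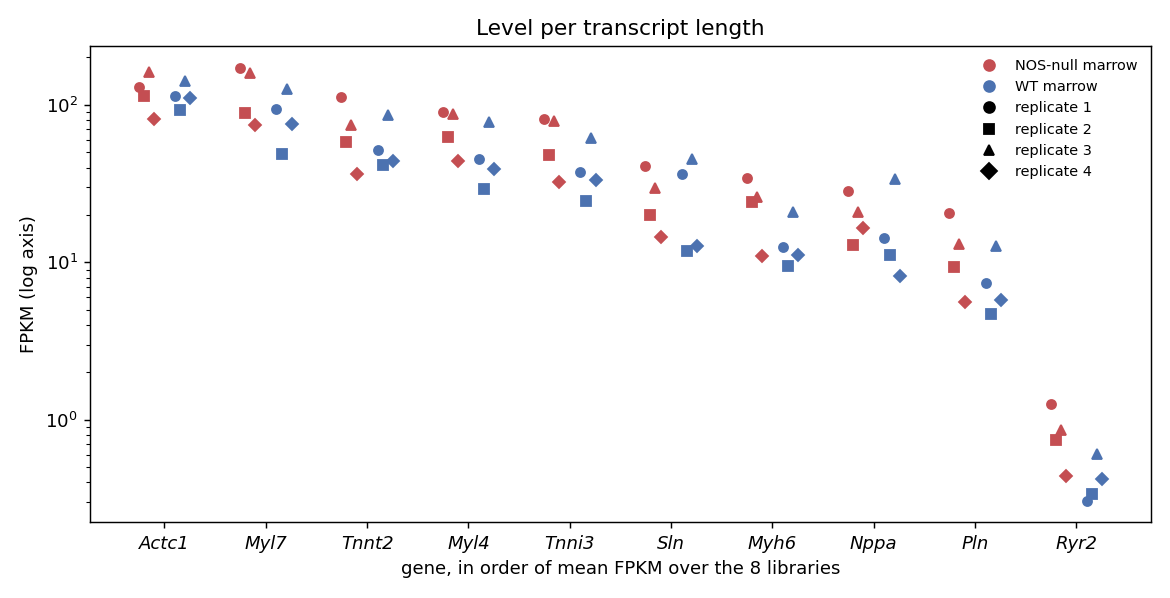
FPKM of each gene (log axis) in the 8 libraries, genes ordered by their mean, with NOS-null marrow left of WT marrow and the marker shape giving the replicate. Actc1 and Myl7 are at the top, and Ryr2 stands alone near 0.6 FPKM.

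Short motifs in the promoters of these genes are given as a description, and whether they relate to the shared variation was not tested. RefSeq start sites on GRCm38.p6 were found for 9 of the 10 genes (10 windows, since Tnnt2 has more than 1 start), and the 250 bases before each start were searched on both strands. For Actc1, Tnni3 and Myh6 the window lies within the gene as GENCODE annotates it, so the RefSeq start used is not the outermost GENCODE start. The CArG box, the site of serum response factor, was found in 2 of the 10 windows, those of Myl7 and Actc1, against 1.47% of all 32851 windows of the same length. GATAA, the core of GATA factor sites, was found for Tnnt2, Nppa, Pln and Myl7 (22.6% of all windows). CATTCC, the core of TEAD factor sites, was found for Tnnt2, Myl7 and Myh6 (12.6% of all windows). The T-box motif AGGTGT was found for Nppa and Tnni3 (11.8%), TATAAA for Nppa and Pln (12.4%), and the MEF2 motif for no member (2.92%). The stretches printed here are those with a CArG box and that of the hormone gene Nppa, each 150 bases written 5′ to 3′ on the gene's own strand, with annotated exon bases left out. Capitals mark the matches, which did not overlap each other.
Myl7, chr11:5898783-5898932, minus strand: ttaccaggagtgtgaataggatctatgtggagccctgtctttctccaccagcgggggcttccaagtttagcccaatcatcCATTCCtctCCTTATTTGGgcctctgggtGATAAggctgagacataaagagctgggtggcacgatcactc
Actc1, chr2:114052888-114053037, minus strand: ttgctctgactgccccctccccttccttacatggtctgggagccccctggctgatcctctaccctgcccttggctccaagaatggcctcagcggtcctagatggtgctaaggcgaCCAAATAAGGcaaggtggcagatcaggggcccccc
Nppa, chr4:148000572-148000721, plus strand: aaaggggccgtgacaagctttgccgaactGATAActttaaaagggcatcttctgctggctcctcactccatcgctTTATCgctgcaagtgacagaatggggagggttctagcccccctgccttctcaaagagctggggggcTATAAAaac
In Myl7 the TEAD core, the CArG box and the GATA core followed each other within the last 70 bases before the start, from positions −70, −61 and −41. In Nppa a GATA core stood on each strand, and the TATAAA match ended 4 bases before the start. A match is a run of letters and was not tested as a site.

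Among the thick filament genes, Myh6 encodes the alpha myosin heavy chain, the motor of the atrium and of the adult mouse heart (chromosome 14, 54941921 to 54966927, GRCm38). It stood at 1693, 1183, 1276 and 534 scaled reads in NOS-null marrow replicates 1 to 4, against 612, 462, 1014 and 546 in WT marrow replicates 1 to 4, the order used for every gene. Thus 3 of the 4 NOS-null marrow lungs lay above every WT marrow lung, while replicate 4 lay among the lower WT marrow values. The means were 1171 ± 479 for NOS-null marrow and 659 ± 245 for WT marrow (SD, n = 4 each), a log2 change of 0.78 (SE 0.34, interval 0.04 to 1.52), and limma gave an unadjusted p of 0.0417 and an adjusted p of 0.172. Of the 75-base windows of the Myh6 transcript, 15.5% also occur in Myh7, its neighbour and close relative, so that part of its reads could be assigned to either.

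Myl7 (chromosome 11, 5896637 to 5898782) stood at 553, 283, 512 and 237 scaled reads with NOS-null marrow, against 303, 155, 404 and 244 with WT marrow. Replicates 1 and 3 of NOS-null marrow were the highest, WT marrow replicate 3 came next, and the groups overlapped. The log2 change was 0.51 (SE 0.33, interval −0.22 to 1.23, limma adjusted p = 0.339). Myl4 (chromosome 11, 104550663 to 104595753) was highest in the same lungs, with 512, 353, 492 and 248 scaled reads with NOS-null marrow, against 255, 166, 438 and 223 with WT marrow. Its log2 change was 0.60 (SE 0.30, interval −0.06 to 1.26, limma adjusted p = 0.224). The ratio of the atrial light chains stayed narrow, with Myl7 at 1.71 ± 0.22 times Myl4 in FPKM with NOS-null marrow and 1.83 ± 0.22 times with WT marrow.

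The thin filament genes differed in how much they varied. Actc1, cardiac alpha actin (chromosome 2, 114047282 to 114053548), held 1293, 1128, 1606 and 811 scaled reads with NOS-null marrow, against 1133, 922, 1397 and 1092 with WT marrow. Its highest value was 1.98 times its lowest, the narrowest range of the 10, and its log2 change was 0.06 (SE 0.19, interval −0.36 to 0.49, limma adjusted p = 0.857). Tnnt2, cardiac troponin T, which ties the troponin complex to tropomyosin (chromosome 1, 135836354 to 135852260), held 868, 452, 583 and 283 scaled reads with NOS-null marrow, against 399, 320.3, 669 and 340.3 with WT marrow. Its NOS-null marrow values ran from below to above all WT marrow values (log2 change 0.29, SE 0.32, interval −0.43 to 1.01, limma adjusted p = 0.591). Tnni3, cardiac troponin I, the inhibitory subunit (chromosome 7, 4518305 to 4524229), held 418, 249, 410.2 and 167 scaled reads with NOS-null marrow, against 193, 127, 316 and 171 with WT marrow. Only NOS-null marrow replicates 1 and 3 lay above all WT marrow lungs (log2 change 0.60, SE 0.33, interval −0.12 to 1.33, limma adjusted p = 0.259). Tnni3 shares 86 of its 2063 exon bases with Dnaaf3 on the same strand. No 75-base window of the longest Actc1 transcript occurred exactly in another gene's transcript, other actin genes included.

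The calcium genes held the gene of largest change. Ryr2, the channel that releases calcium from the sarcoplasmic reticulum (chromosome 13, 11553102 to 12106945), stood at 176, 104, 120.3 and 60.9 scaled reads with NOS-null marrow, against 42.7, 46.8, 84.7 and 58.6 with WT marrow. Again 3 of the 4 NOS-null marrow lungs lay above every WT marrow lung, and replicate 4 lay between the 2 highest WT marrow values. The means were 115 ± 47.7 for NOS-null marrow and 58.2 ± 18.9 for WT marrow, a log2 change of 0.93 (SE 0.31, interval 0.24 to 1.62), with an unadjusted p of 0.0134 and an adjusted p of 0.101 from limma. Pln, phospholamban, a brake on the calcium pump (chromosome 10, 53337667 to 53345987), stood at 369, 168, 236 and 101 scaled reads with NOS-null marrow, against 133, 84.3, 229 and 103 with WT marrow (log2 change 0.62, SE 0.39, interval −0.25 to 1.48, limma adjusted p = 0.328). The transcript Gm47644 on the opposite strand covers 59.6% of its exon bases and the coding gene Cep85l, also on that strand, 5.11%, and the labels do not say that reads were counted by strand.

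Sln, sarcolipin, is the other brake on the pump and an atrial gene in the mouse heart (chromosome 9, 53850164 to 53854560). Its departure from the other 9 genes was largest in WT marrow replicate 1 and smaller in the rest. It stood at 108, 52.1, 77.9 and 38.1 scaled reads with NOS-null marrow, against 95.4, 30.9, 118 and 33.1 with WT marrow. WT marrow replicate 1 lay above all but NOS-null marrow replicate 1 and WT marrow replicate 3 here, although it was lowest of all 8 for Ryr2. The means were 68.9 ± 30.6 scaled reads for NOS-null marrow and 69.4 ± 44.2 for WT marrow, while the log2 change was 0.13 (SE 0.47, interval −0.91 to 1.16, limma adjusted p = 0.883).

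Nppa, the gene of atrial natriuretic peptide (chromosome 4, 148000722 to 148002079), stood at 148, 66.6, 109 and 85.9 scaled reads with NOS-null marrow, against 74.5, 58.1, 176 and 42.5 with WT marrow. The highest and the lowest lung both had WT marrow (log2 change 0.37, SE 0.39, interval −0.50 to 1.25, limma adjusted p = 0.568). An antisense transcript is annotated over 61.5% of its exon bases.

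**Figure D2:**
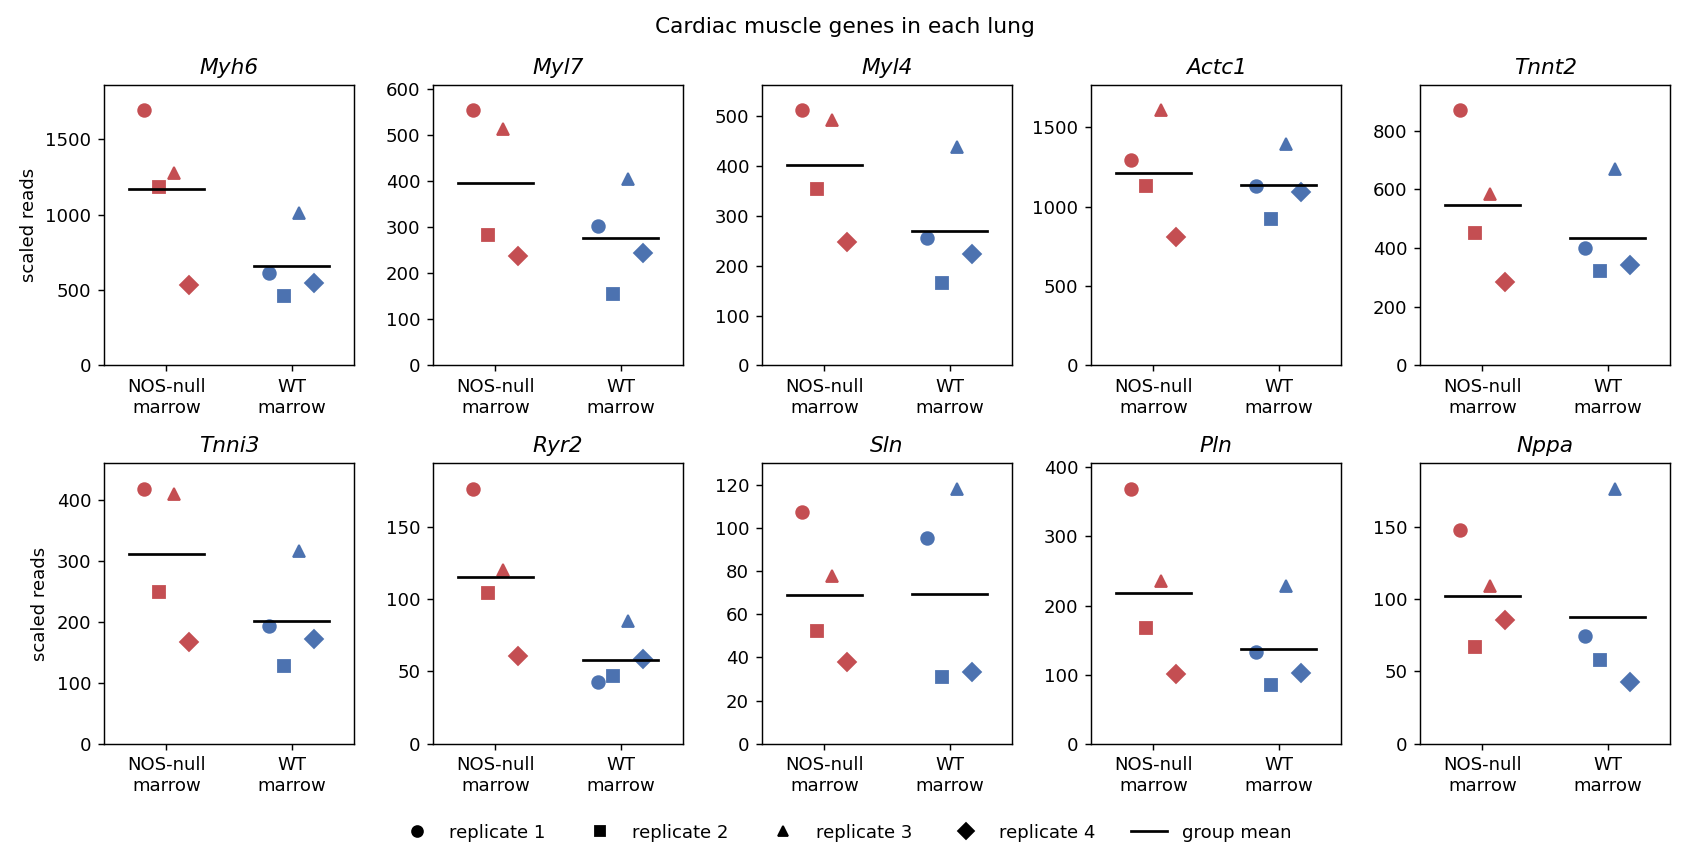
Scaled reads of each of the 10 genes by lung, NOS-null marrow left of WT marrow, with the marker shape giving the replicate and the bar the group mean (n = 4); each axis starts at 0. Groups overlap in all 10 panels, and replicates 1 and 3 of NOS-null marrow and replicate 3 of WT marrow are high in most.

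Counted together, 0 of 10 genes were called by limma, against 4.05% of all tested genes. At an unadjusted p under 0.05 there were 2 of 10, Myh6 and Ryr2, against 26.6% of all tested genes in both directions and 13.3% in the higher one. The groups did not overlap for 0 of 10 genes, against 17.1% of all tested genes, 7.82% higher with NOS-null marrow. The median log2 change of the 10 was 0.55, or 1.47-fold, against 0.00 over all tested genes, and 10 of 10 were above 0, against 50.1%. Since the 10 genes varied together, their signs are not 10 independent observations. The genes were also chosen with earlier results of these data known, so these shares are a description. The 95% intervals of 8 of the 10 held 0, and their upper bounds ran from 0.49 (Actc1) to 1.62 (Ryr2). Without NOS-null marrow replicate 4 both Myh6 (log2 change 1.12, limma adjusted p = 0.0334) and Ryr2 (1.20, limma adjusted p = 0.0345) were called, whereas leaving out any other lung gave 0 calls. Leaving out replicate 1 of NOS-null marrow gave a median log2 change of 0.31, leaving out replicate 2 of WT marrow gave 0.33, and 0.37 was left when replicates 1 and 2 of NOS-null marrow were both out. In bulk lung RNA, a difference in the number of heart muscle cells and one in the RNA of each cell cannot be told apart.

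**Figure D3:**
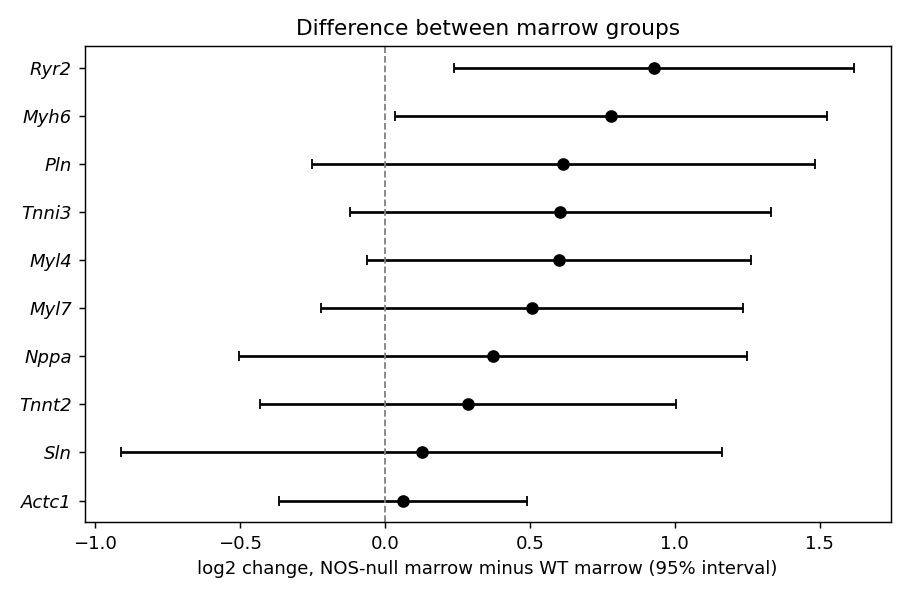
Log2 change of each gene, NOS-null marrow minus WT marrow, with its 95% interval from limma (8 libraries) and a dashed line at 0. All 10 points lie right of 0, and the intervals of Myh6 and Ryr2 alone clear it before adjustment.

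The spread between lungs of 1 group was wide for these genes. The within-group SD on the log2 scale ran from 0.34 for Actc1 to 0.84 for Sln, with a median of 0.59, against a median of 0.19 over all tested genes. For 9 of the 10 it was above that of 90% of tested genes, as a description of genes chosen with earlier results known. The highest value was 1.98 to 4.38 times the lowest over the 8 lungs. Within NOS-null marrow, replicate 1 was highest for 9 of 10 genes and replicate 4 lowest for 9. Within WT marrow, replicate 3 was highest for 10 of 10 and replicate 2 lowest for 8. As a mean deviation from the 8-library level, the 10 genes stood at 0.85, 0.05, 0.55 and −0.47 (log2) in NOS-null marrow replicates 1 to 4, against −0.19, −0.76, 0.50 and −0.53 in WT marrow replicates 1 to 4. Summed, the 10 genes made up 0.0712%, 0.0490%, 0.0681% and 0.0330% of all scaled reads with NOS-null marrow, against 0.0394%, 0.0302%, 0.0608% and 0.0361% with WT marrow.

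Relative to the other 9 genes of the same library, most members kept their place. The SD of this relative deviation over the 8 libraries was 0.13 for Myl4 and Tnni3, 0.18 for Tnnt2, 0.19 for Myl7 and Pln and 0.26 for Myh6 (log2). It was larger for Ryr2 (0.39), Actc1 (0.41), Nppa (0.42) and Sln (0.46). Ryr2 stood at 0.36, 0.41, 0.08 and 0.13 relative to the others with NOS-null marrow, against −0.73, 0.04, −0.42 and 0.14 with WT marrow. Actc1 stood at −0.75, −0.08, −0.07 and −0.03 with NOS-null marrow, against 0.19, 0.49, −0.24 and 0.50 with WT marrow. Sln stood at −0.04, −0.31, −0.23 and −0.22 with NOS-null marrow, against 0.92, −0.22, 0.49 and −0.38 with WT marrow. For all 10 genes the relative values of the groups overlapped, and no test was made of them.

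**Figure D4:**
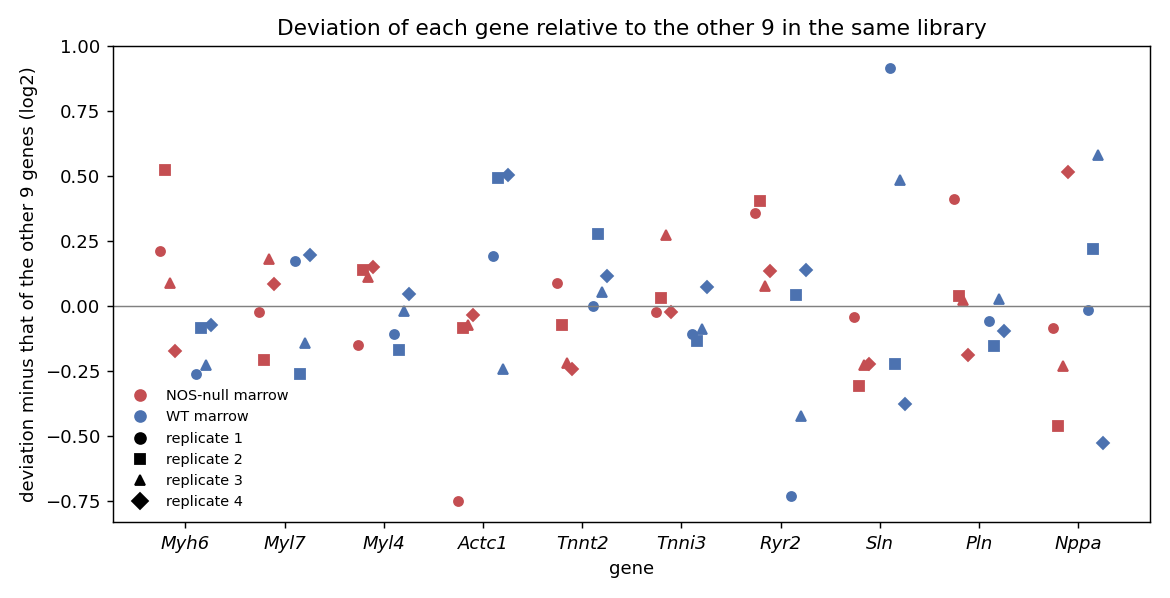
Deviation of each gene from its own 8-library mean, less the mean deviation of the other 9 genes in the same library (log2), NOS-null marrow left of WT marrow. Myl4 and Tnni3 stay between −0.17 and 0.27, whereas Sln reaches 0.92 in WT marrow replicate 1 and Actc1 −0.75 in NOS-null marrow replicate 1.

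Outside the 10, the genes whose log2 profile over the 8 libraries was nearest to the members' mean profile were mostly of the same machinery. The nearest by Pearson similarity were Tnnc1, cardiac troponin C (0.97), Ttn, titin (0.97), Wac (0.97), Srl, sarcalumenin (0.97), Myoz2, a Z-disc protein (0.97), Actn2, sarcomeric alpha actinin (0.96), Csrp3, muscle LIM protein (0.96), Purb (0.96), Myom2, an M-band protein (0.95), and Atp2a2, the calcium pump that Sln and Pln act on (0.95). Of these 10, Wac and Purb were on no list of cardiac genes, and both varied little, their highest value being 1.25 and 1.31 times the lowest. Ttn stood at 280, 197, 224 and 104 scaled reads with NOS-null marrow, against 115, 74.9, 203 and 99.3 with WT marrow. Tnnc1 stood at 212, 102, 166 and 75.0 with NOS-null marrow, against 71.5, 64.6, 151 and 72.8 with WT marrow, where replicate 3 stood far from the other 3. Of 13998 tested genes other than the members, 32 had a similarity of at least 0.9, and 18 of the 32 were on the cardiac lists. Of the 74 genes tested on those lists besides the members, 35 had a similarity under 0.5. These similarities share the 8 libraries and hold the difference between the marrow groups, and are given as a description.

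Beyond the 10, 101 other genes known from heart muscle were listed, of which 74 were tested. Of the 74, 1 was called higher and 3 lower with NOS-null marrow, 5.41% in all against 4.05% of all tested genes. Their median log2 change was 0.30. At an unadjusted p under 0.05 from limma there were 20 of the 74, against 26.6% of all tested genes. Counts at an unadjusted p for the single lists below stand beside that same share.

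Among 26 other sarcomere and Z-disc genes tested, 0 were called higher and 2 lower. Ankrd1, a titin-binding protein of striated muscle that cytokine-activated human endothelial cells also make, fell to 203 ± 24.2 scaled reads with NOS-null marrow, against 388 ± 34.5 with WT marrow (log2 change −0.93, SE 0.11, limma adjusted p = 0.00422). Tpm1, an alpha tropomyosin gene that heart and smooth muscle share, fell to 4241 ± 572 with NOS-null marrow, against 6285 ± 269 with WT marrow (−0.58, SE 0.10, limma adjusted p = 0.0191). In both, all 4 NOS-null marrow lungs lay below all 4 WT marrow lungs. Ankrd1 stayed called whichever lung was left out (highest limma adjusted p = 0.0246). Tpm1 was not called with replicate 2 of NOS-null marrow, or 1, 2 or 3 of WT marrow, left out (highest limma adjusted p = 0.0731).

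Of 12 calcium handling genes tested, 0 were called (3 at an unadjusted p under 0.05), with Atp2a2 at 2163 ± 348 scaled reads for NOS-null marrow and 1765 ± 329 for WT marrow (log2 change 0.30, limma adjusted p = 0.223) and Asph, junctin and its relatives, at 768 ± 45.2 for NOS-null marrow and 820.0 ± 34.7 for WT marrow (−0.10, limma adjusted p = 0.409). Of 11 ion channel and junction genes, 1 fell. It was Gjc1, connexin 45, at 354 ± 31.6 for NOS-null marrow and 499 ± 35.7 for WT marrow (−0.50, SE 0.09, limma adjusted p = 0.0235). Gjc1 was not called without NOS-null marrow replicate 2, nor when any of the 4 WT marrow lungs was left out (highest limma adjusted p = 0.0825), nor in limma without trend (adjusted p = 0.0502).

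Of 10 genes of muscle energy metabolism tested, 0 were called (4 at an unadjusted p under 0.05), with Mb, myoglobin, at 248 ± 78.9 scaled reads for NOS-null marrow and 178 ± 116 for WT marrow, where replicate 3 held 351, and Pdk4, a brake on glucose oxidation, at 250.1 ± 184 for NOS-null marrow and 93.2 ± 58.2 for WT marrow (limma adjusted p = 0.32 and 0.134). Of 8 cardiac transcription factor genes tested, 0 were called (3 at an unadjusted p under 0.05), with Nr2f2 at 1023 ± 87.1 for NOS-null marrow and 917 ± 138 for WT marrow and Mef2a at 909 ± 124 for NOS-null marrow and 706 ± 59.5 for WT marrow (limma adjusted p = 0.348 and 0.0754). Nkx2-5, the early cardiac regulator, stood at 0 to 2.96 scaled reads for NOS-null marrow and 0 to 3.94 for WT marrow and was not tested. It was picked after its values were seen.

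The receptors of the peptide that Nppa encodes differed among themselves. Npr3, the clearance receptor that removes natriuretic peptides, rose to 405 ± 37.4 scaled reads with NOS-null marrow, against 248 ± 22.9 with WT marrow. Its values were 439, 425, 402 and 353 with NOS-null marrow, against 255, 222, 240.4 and 276 with WT marrow, with no overlap (log2 change 0.70, SE 0.10, limma adjusted p = 0.00962). Npr3 stayed called whichever lung was left out (highest limma adjusted p = 0.0418), and it was the 1 gene called of 7 tested secreted factor and receptor genes. Npr1, the signalling receptor that makes cGMP, stood at 581 ± 98.2 for NOS-null marrow and 599 ± 79.2 for WT marrow (−0.05, SE 0.14, limma adjusted p = 0.835). Corin, the protease that cuts the Nppa precursor, stood at 36.9, 30.2, 35.5 and 27.2 scaled reads with NOS-null marrow, against 9.94, 8.43, 27.6 and 10.4 with WT marrow (1.29, SE 0.34, limma adjusted p = 0.0578), and it and Npr1 were picked after their values were seen. Npr1, Npr3 and Corin are not confined to heart muscle, and which lung cells held them was not measured.

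Genes of other tissues were read beside these values. Of 13 smooth muscle genes, 5 fell and 0 rose, with Acta2, smooth muscle actin, at 6838 ± 941 scaled reads for NOS-null marrow and 13816 ± 1056 for WT marrow (log2 change −1.02, limma adjusted p = 0.00248), and Tagln, Myl9, Cnn1 and Des lower too. Cnn1 was not called with replicate 2 of NOS-null marrow, or any of the 4 WT marrow lungs, left out (highest limma adjusted p = 0.106), and Des not with replicate 2 of NOS-null marrow, or 1 or 2 of WT marrow, left out (highest limma adjusted p = 0.0731). The 13 smooth muscle genes summed to 24317 to 28463 for NOS-null marrow and 37937 to 41731 for WT marrow. Their similarity to the members' mean profile ran from −0.59 (Smtn) to 0.66 (Synpo2), with a median of −0.36 and −0.44 for Acta2. Fat genes moved with the members in part. Adipoq, adiponectin, stood at 44.1, 25.0, 38.5 and 13.1 scaled reads with NOS-null marrow, against 11.9, 15.9, 51.2 and 9.45 with WT marrow (similarity 0.89). Cfd, adipsin, and Fabp4 had similarities of 0.81 and 0.82, and Cidec, a lipid droplet gene, 0.41 with a log2 change of −0.29 (limma adjusted p = 0.337). Of 6 white fat genes 4 were tested, and 0 were called or had an unadjusted p under 0.05, with Cfd at 212 ± 67.8 for NOS-null marrow and 129 ± 104 for WT marrow and Fabp4 at 207 ± 54.4 for NOS-null marrow and 150.4 ± 68.7 for WT marrow. Together the 6 summed to 313 to 605 for NOS-null marrow and 196 to 669 for WT marrow, with Lep, leptin, at no more than 2.18 in any lung. Of 5 brown fat genes tested 0 were called (2 at an unadjusted p under 0.05), with Prdm16 at 214 ± 25.5 for NOS-null marrow and 259 ± 29.1 for WT marrow. Ppargc1a was at 81.8 ± 14.6 for NOS-null marrow and 63.6 ± 11.8 for WT marrow, and Ucp1 was at 0 for NOS-null marrow and at no more than 1 read for WT marrow. Similarities of the 5 brown fat genes ran from −0.37 (Dio2) to 0.84 (Ppargc1a), with a median of 0.63. Their mean deviation was also highest in WT marrow replicate 3 (0.57), NOS-null marrow replicate 3 (0.40) and NOS-null marrow replicate 1 (0.21). The part of fat tissue in the cardiac muscle values was not tested, and Adipoq, Lep, Ucp1, Cidec, Dio2, Smtn and Synpo2 were picked after their values were seen.

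Among the ventricular genes 3 of 5 were tested and 0 called (1 at an unadjusted p under 0.05), with Myh7, the beta myosin heavy chain, at 118 ± 15.2 scaled reads for NOS-null marrow and 128 ± 14.9 for WT marrow (log2 change −0.12, limma adjusted p = 0.575) and a similarity of −0.35 to the members. Hey2 was at 73.2 ± 20.5 for NOS-null marrow and 62.6 ± 9.88 for WT marrow. The 2 tested thymus genes, Cd8b1 and Cd1d1, were not called (limma adjusted p = 0.992 and 0.801). Upk1b, 1 of 5 tested genes of the epicardium and mesothelium, rose (0.49, limma adjusted p = 0.0469), and it was called in 1 of the 8 fits with a lung left out. The genes listed for venous endothelium went both ways, and which lung vessels held them was not measured. Vwf, von Willebrand factor, and Slc6a2, the noradrenaline transporter, rose (log2 change 0.88 and 1.33, limma adjusted p = 0.0191 and 0.0183), and Emcn, endomucin, fell (−1.21, limma adjusted p = 0.00721), of 6 tested. Vwf and Slc6a2 were not called with any of the same 4 lungs as for Tpm1 left out (highest limma adjusted p = 0.0744 and 0.0735).

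**Figure D5:**
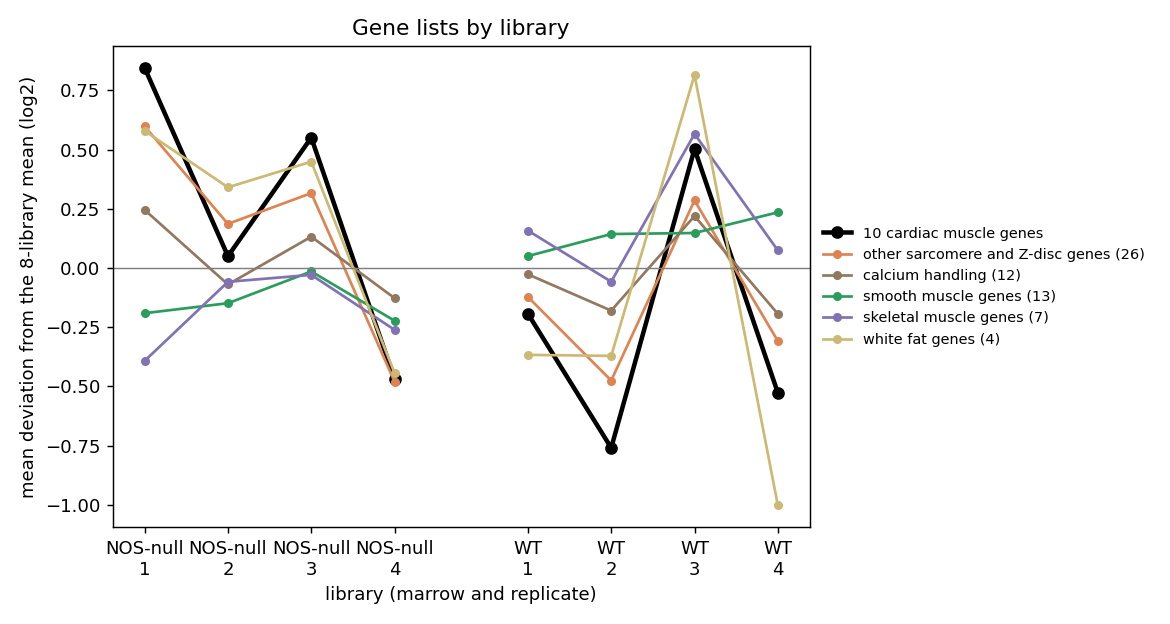
Mean deviation of 6 gene lists from their 8-library mean (log2) in each library, NOS-null marrow left of WT marrow, with the number of tested genes in brackets. The 10 cardiac muscle genes run from 0.85 in NOS-null marrow replicate 1 to −0.76 in WT marrow replicate 2. The means of other sarcomere, calcium handling and white fat genes are also highest in NOS-null marrow replicates 1 and 3 and WT marrow replicate 3. That of smooth muscle genes is not, and that of skeletal muscle genes is highest in WT marrow replicate 3 (0.57) and lowest in NOS-null marrow replicate 1 (−0.39). Single calcium handling genes had similarities to the members of −0.56 to 0.97, with a median of 0.20.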

How the data were processed

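Lung RNA of 8 mice was sequenced as 75 bp single reads, per the labels' protocols, from oligo(dT)-selected mRNA. Per the submitters' processing notes, CASAVA 1.8.2, TopHat2 2.0.13, Bowtie2 2.2.3, SAMtools 0.1.19 and Cufflinks 2.2.1 were used with mm10. No label used here names the annotation, settings or strand handling. The deposited count-scale table holds signal values, which are read counts over a size factor for each library, as the authors deposited them. The authors' deposited FPKM table, made with the same tools, gave the levels compared between genes and an alternative fit. Whole reads were not recovered, so no count model was used.

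Groups were read from sample titles, since the design text gives both the same marrow. Values were taken as log2(value + 1). Genes reaching 10 in 4 or more libraries (14008) went into limma 3.58.1 (R 4.3.3, trend on), with marrow as the only term, and p-values were Benjamini-Hochberg adjusted over all of them. The fit was tested on simulated data in which genes varied independently, so that test does not cover genes that vary together. The members and lists were chosen with earlier results of these data known. Named are the 10 members, called list genes (of a list with none, the 2 highest), the 10 nearest profiles and Nos genes; others are marked. Positions, overlaps and 75-base windows came from GENCODE M21 (GRCm38, the same assembly as mm10), and promoters from RefSeq. Alternatives were other pseudocounts, filters, scalings and limma settings, the FPKM table, the replicate number as a block and fits leaving out lungs.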

Additional observations from a re-analysis of the deposited data

Results flagged for a closer look

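In 5 genes WT marrow replicate 3 stood far above the other 3 lungs of its group, past Dixon's 95% mark for 4 samples. Tnnc1, cardiac troponin C, held 151 scaled reads there, against 64.6 to 72.8 in the other WT marrow lungs. Mb, myoglobin, held 351, against 109.7 to 140.1. Corin held 27.6, against 8.43 to 10.4. The fat genes Adipoq and Cidec held 51.2 and 83.8, against 9.45 to 15.9 and 54.8 to 59.6. The same lung was the highest WT marrow lung for all 10 cardiac muscle genes, none of which passed this mark. In all 114 groups were checked (57 tested genes in both marrow groups) and 5 were flagged, where chance flags about 1 in 20. That rate holds for genes fixed beforehand, whereas Corin, Adipoq and Cidec were picked after their values were seen. Tnnc1 was named for its nearness to the members' mean profile, so the flags are given as a description.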

How the results depend on the processing

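Values of the cardiac muscle genes ran from 30.9 to 1693 scaled reads a library, so counting error weighs most on Sln, Ryr2 and Nppa, and with 4 lungs a group and within-group SDs of 0.34 to 0.84 (log2) the intervals are wide. The number of cardiac muscle genes called stayed at 0 under every other pseudocount, filter, scaling, limma setting, the FPKM table, the replicate block and the fit without NOS-null marrow replicates 1 and 2, and was 0 to 2 over the fits without 1 lung. Their median log2 change was 0.31 to 0.81 over those fits. Directions turned for 3 genes of small change. Over the fits without 1 lung, Actc1 ran from −0.087 to 0.24, below 0 when replicate 3 of NOS-null marrow (−0.087) or replicate 2 of WT marrow (−0.032) was left out. Sln ran from −0.17 to 0.46, below 0 when NOS-null marrow replicate 1 (−0.12), WT marrow replicate 2 (−0.17) or WT marrow replicate 4 (−0.14) was left out. With NOS-null marrow replicates 1 and 2 both left out, Sln was at −0.099 and Tnnt2 at −0.025. Other cardiac genes called numbered 2 to 7 over the fits without 1 lung. All genes called numbered 185 in limma without trend, 135 with the replicate block, 181 without NOS-null marrow replicates 1 and 2, and 71 to 798 without 1 lung, under 567 by more than 1.5 times when replicate 2 of NOS-null marrow (95) or replicate 1 (71), 2 (81), 3 (87) or 4 (233) of WT marrow was out; the cause was not tested. Whether the replicate numbers pair the lungs could not be settled from the values. The deviations of same-numbered lungs correlated at 0.04, 0.17, 0.00 and 0.15, not all above 0.1. The pairs 2 and 4 had the highest of the 16 correlations, whereas NOS-null marrow replicate 1 correlated best with WT marrow replicate 3 (0.11). With the block Tpm1, Gjc1, Casq1, Cnn1, Des and Upk1b were not called (limma adjusted p = 0.0505 to 0.082). Gjc1, Casq1, Cnn1 and Upk1b were not called in limma without trend either, and Gjc1, Casq1 and Cnn1 not without NOS-null marrow replicates 1 and 2. Upk1b was not called without a filter, rescaled to an equal total or in the FPKM table.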
